A study of Rattus norvegicus with 32 samples.

Results

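The identity of liver sinusoidal endothelial cells (LSECs), the fenestrated endothelium that lines the capillaries of the liver, rests on a small set of transcription factors. The genes described here are 9 transcription factor genes of LSECs or other endothelium, chosen by gene symbol from the 32623 genes measured: Gata4, Maf, Meis1, Meis2, Nr2f2, Erg, Fli1, Sox17 and Sox18. RNA was sequenced in 22 libraries from male Wistar Han rats that inhaled carbon tetrachloride (CCl4), a hepatotoxin, or stayed healthy, with phenobarbital in the drinking water of the CCl4 model, and in 10 libraries of a second experiment with thioacetamide (TAA), another hepatotoxin. The CCl4 groups were healthy (n = 6), acute injury after 2 weeks of CCl4 (n = 5), fibrosis after 6 weeks (n = 5) and cirrhosis (n = 6), for which the description of the study gives 12 to 14 weeks. LSECs were isolated by density centrifugation, without a sort on a marker. The TAA experiment had the groups labelled T control (n = 5) and T TAA control (n = 5). Its labels give Wistar Han rats and the description of the study Sprague-Dawley rats, and the sources used here do not settle which group received TAA. Its differences are therefore signed as T TAA control minus T control, without a direction of disease.

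GATA4 is a zinc-finger factor that maintains the sinusoidal type of endothelium and represses genes of continuous capillaries. c-MAF, encoded by Maf, is a leucine-zipper factor, and MEIS1 and MEIS2 are homeodomain factors that bind DNA with PBX and HOX partners. NR2F2 (COUP-TFII) is a nuclear receptor of venous and lymphatic identity. ERG and FLI1 are ETS factors that drive general endothelial genes, and SOX17 and SOX18 are the SOXF factors of arterial and lymphatic endothelium. Loss of the sinusoidal type in chronic liver disease is known as capillarization.

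Promoter sequences were at hand for 3 of the 9 genes, Maf, Meis1 and Erg (RefSeq, rat build GRCr8). Those of Maf and Erg, which moved apart under CCl4, are shown. Each is the 250 bases before the annotated start, 5′ to 3′ on the strand of the gene. Maf lies on the minus strand at chr19:60621357-60621606 and Erg on the minus strand at chr11:48251567-48251816. Capitals mark matches on either strand to 6 core motifs, namely AGATAA for zinc-finger factors such as GATA4, CCGGAA for the ETS family, AACAAT for the SOX family, TGCTGA for MAF proteins, TGACAG for MEIS proteins and AGGTCA for NR2F receptors. No matches overlapped each other.
Maf: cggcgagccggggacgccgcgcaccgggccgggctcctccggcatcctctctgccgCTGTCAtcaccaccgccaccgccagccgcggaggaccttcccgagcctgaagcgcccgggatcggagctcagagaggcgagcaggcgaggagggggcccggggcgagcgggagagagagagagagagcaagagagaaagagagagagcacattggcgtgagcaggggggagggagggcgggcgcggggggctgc
Erg: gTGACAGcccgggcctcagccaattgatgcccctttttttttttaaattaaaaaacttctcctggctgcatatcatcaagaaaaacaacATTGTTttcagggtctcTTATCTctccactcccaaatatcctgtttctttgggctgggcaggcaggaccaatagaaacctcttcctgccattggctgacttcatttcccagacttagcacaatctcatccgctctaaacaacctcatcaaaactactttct
The window of Maf held 1 MEIS match, and that of Erg held a MEIS, a SOX and a GATA match. The window of Meis1, a gene that also moved apart from Erg, is not shown and held no match. In the same window of all 33469 promoters, the share with a match was 15.8% for MEIS, 10.3% for SOX, 10.3% for GATA, 12.6% for ETS, 15.1% for MAF and 14.1% for NR2F. These letters are a description of the windows and not sites shown to be bound.

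Levels are given as CPM (counts per 1000000 counts of the library) scaled with TMM factors (trimmed mean of M values, a scaling of library sizes by the bulk of genes). A differentially expressed gene (DEG) had p under 0.05 before adjustment in limma-voom together with a fold-change exceeding 1.5, and the Benjamini-Hochberg adjusted p over all genes tested is given beside it. Total counts per library ranged from 25646531 to 46464289. The acute and fibrosis libraries stood apart from the others in genes of many kinds. The summed level of 16 pan-endothelial genes was 18180 to 28020 CPM in healthy LSECs, 4070 to 5051 in acute injury, 3434 to 4176 in fibrosis and 12550 to 15400 in cirrhosis. That of 15 immediate-early genes, which respond within minutes to stimuli, was 46300 to 79240 CPM in healthy LSECs, 1650 to 3599 in acute injury, 2874 to 4314 in fibrosis and 22220 to 47440 in cirrhosis. In bulk samples, fewer cells of a type and less RNA per cell cannot be told apart. Most markers of LSECs were high in healthy and, in part, in cirrhotic libraries and lower in those of acute injury and fibrosis. Stab2, a scavenger receptor of LSECs, was at 3482 CPM ± 1304 (SD, n = 6) in healthy and 3294 ± 552 (SD, n = 6) in cirrhotic LSECs. It was at 148 ± 71.7 (SD, n = 5) in acute injury and 180 ± 55.5 (SD, n = 5) in fibrosis. Stab1, its relative, was at 4957 ± 1383 (SD, n = 6) in healthy LSECs, 149 ± 47.5 (SD, n = 5) in acute injury, 163 ± 24.0 (SD, n = 5) in fibrosis and 1177 ± 232 (SD, n = 6) in cirrhosis. The label LSEC therefore goes against Stab2 and Stab1 in the acute and fibrosis libraries. Of 19 LSEC genes, 15 were lower in acute injury and 17 in fibrosis, and 1, Dab2, was higher in both.

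**Figure D1:**
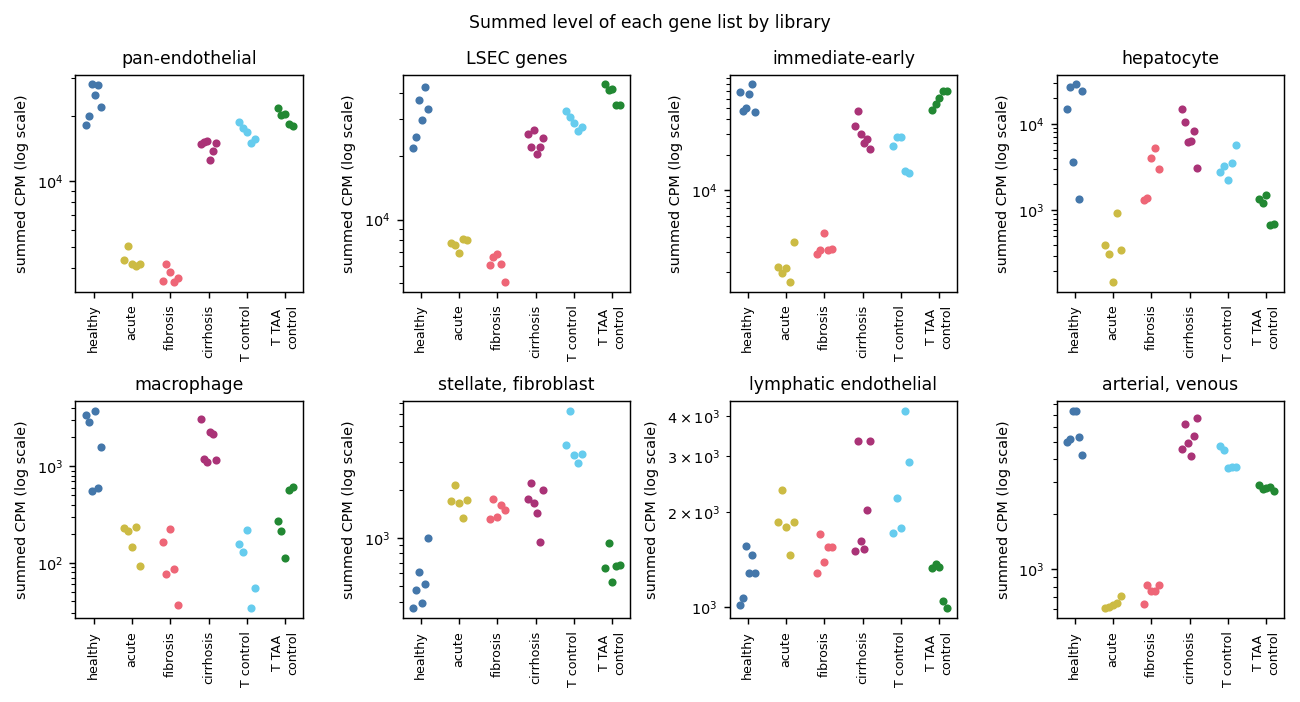
Summed CPM of the genes of 8 lists (log axis) in every library, 1 point per library, by group. The pan-endothelial sum of the acute and fibrosis libraries lay between 3434 and 5051 CPM, below all healthy and cirrhotic libraries.

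Most of these factors had lower levels in acute injury and fibrosis when scaled to the bulk of genes, a direction that turned for several of them relative to pan-endothelial genes. In acute injury, 7 of the 9 genes were DEG against healthy LSECs, with Gata4, Maf, Meis1, Meis2, Fli1 and Sox18 lower and Erg higher. In fibrosis, 8 of the 9 were DEG, all lower, with Erg as the exception. In cirrhosis, only 4 of the 9 were DEG, with Gata4 and Sox18 lower and Erg and Fli1 higher. The share of DEG among all genes tested was 74.1% in acute injury, 71.2% in fibrosis and 54.5% in cirrhosis, so the counts of members stood beside a background in which most genes were DEG. DEG that were lower made up 38.3%, 35.4% and 25.7% of all genes. The median log2 fold change of the members was -0.94, -1.44 and 0.26 in these comparisons, beside -0.09, -0.03 and 0.07 over all genes. The libraries did not overlap between the groups for 4 of the 9 genes in acute injury, 4 in fibrosis and 2 in cirrhosis, where this held for 60%, 58.7% and 27.1% of all genes. These 3 comparisons share the 6 healthy libraries.

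The sign of these changes depends on what a gene is measured against. Relative to the summed counts of the pan-endothelial genes, the median log2 fold change of all genes moved to 2.30 in acute injury, 2.57 in fibrosis and 0.75 in cirrhosis. The share of DEG that were higher moved with it, from 48.3% to 88.2% in acute injury, 50.3% to 93.6% in fibrosis and 52.8% to 87.1% in cirrhosis. On this scale Gata4, Meis1, Meis2, Nr2f2, Erg, Fli1 and Sox17 were DEG and higher than in healthy LSECs in acute injury and fibrosis. Maf and Sox18 were DEG and lower in acute injury (-1.24 and -1.26), and at -0.90 and -0.53 in fibrosis they were no longer DEG. The pan-endothelial genes themselves did not move as a block. Of the 16, 14 were lower in acute injury and in fibrosis (median log2 fold change -3.14 and -3.31), but Cdh5, the endothelial cadherin, was at 1293 CPM ± 430 (SD, n = 6) in healthy LSECs, 1597 ± 336 (SD, n = 5) in acute injury, 1040 ± 123 (SD, n = 5) in fibrosis and 1506 ± 180 (SD, n = 6) in cirrhosis, and was not a DEG against healthy LSECs at any stage.

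**Figure D2:**
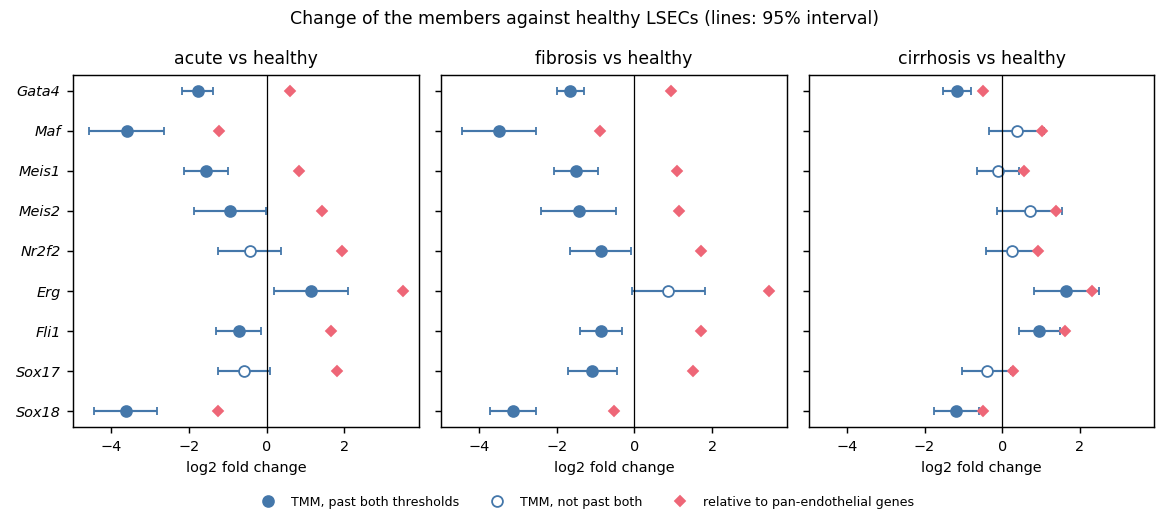
Log2 fold change of each gene against healthy LSECs in acute injury, fibrosis and cirrhosis (x axis). Circles give the TMM-scaled value with its 95% interval, filled where the gene was a DEG, and diamonds the value relative to the pan-endothelial genes, which puts Gata4, Meis1, Meis2, Nr2f2, Fli1 and Sox17 above 0 in acute injury and fibrosis.

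Gata4 was lower at every stage, except relative to the pan-endothelial genes, where it was higher in acute injury and fibrosis. Its level in healthy LSECs had a lowest, median and highest value of 576, 901 and 961 CPM. The acute libraries were at 210, 222, 258, 179 and 299 CPM, and the fibrosis libraries at 249, 273, 296, 216 and 209 CPM. In cirrhosis the lowest, median and highest values were 297, 365 and 412 CPM. No library of any diseased group reached the lowest healthy one, and the acute and fibrosis libraries overlapped. The fall was 3.44-fold in acute injury (log2 fold change -1.78, SE 0.18, limma-voom adjusted p = 2.42e-06), 3.14-fold in fibrosis (-1.65, SE 0.16, adjusted p = 2.02e-06) and 2.24-fold in cirrhosis (-1.16, SE 0.16, adjusted p = 0.000163). Exact two-sided permutation tests on mean log2 CPM gave p = 0.00216 in each of the 3 comparisons, the smallest these group sizes allow. Relative to the pan-endothelial genes the log2 fold change was 0.60 in acute injury, 0.94 in fibrosis and -0.49 in cirrhosis, the last under the fold-change threshold. With TMM scaling, Zfpm1, which encodes the GATA cofactor FOG1, was lower at every stage too (log2 fold change -2.36, -2.16 and -1.42). Its values relative to the pan-endothelial genes are not given here.

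Maf had the largest fall of the 9 genes in fibrosis, and its cirrhotic libraries lay within the healthy range. Healthy LSECs had a lowest, median and highest value of 52.9, 75.7 and 222 CPM. The acute libraries were at 7.21, 5.72, 6.61, 9.33 and 12.9 CPM. The fibrosis libraries were at 8.78, 9.89, 10.2, 9.78 and 5.22 CPM. Every acute and fibrosis library was below every healthy one, and healthy replicates 5 and 6, at 222 and 217 CPM, stood above the other healthy libraries. In cirrhosis the values were 107, 127 and 154 CPM. The gene was 12.2-fold lower in acute injury (log2 fold change -3.61, SE 0.45, limma-voom adjusted p = 1.27e-05) and 11.2-fold lower in fibrosis (-3.48, SE 0.44, adjusted p = 1.86e-05). For cirrhosis the log2 fold change of 0.37 had a 95% interval from -0.34 to 1.08 (adjusted p = 0.35), and relative to the pan-endothelial genes it was 1.04. In acute injury it was called lower under all alternatives tried, at -1.24 relative to the pan-endothelial genes, whereas in fibrosis it was no longer called on that scale (-0.90, adjusted p = 0.0637). Maf is also expressed by macrophages, whose 11 markers summed to 549 to 3766 CPM in healthy LSECs, 93.2 to 237 in acute injury, 36.9 to 224 in fibrosis and 1098 to 3109 in cirrhosis. Their part in the result was not tested.

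Meis1 fell in acute injury and fibrosis, although relative to the pan-endothelial genes it rose (0.82 and 1.09). Its healthy libraries had a lowest, median and highest value of 8.21, 10.9 and 20.0 CPM. The acute libraries were at 4.79, 3.87, 3.47, 3.48 and 3.60 CPM and the fibrosis libraries at 4.27, 4.90, 3.13, 4.10 and 3.30 CPM. Neither group overlapped the healthy libraries, whereas the cirrhotic ones, at 7.75, 10.1 and 16.9 CPM, did. The log2 fold change was -1.57 in acute injury (SE 0.26, limma-voom adjusted p = 0.000143), -1.51 in fibrosis (SE 0.26, adjusted p = 0.000254) and -0.11 in cirrhosis (95% interval -0.66 to 0.43, adjusted p = 0.718). Meis2, which was also higher relative to the pan-endothelial genes (1.43 in acute injury and 1.14 in fibrosis), had in healthy LSECs a lowest, median and highest value of 31.0, 64.9 and 183 CPM. Its acute libraries were at 40.8, 37.2, 46.7, 42.4 and 28.4 CPM and its fibrosis libraries at 20.5, 22.6, 30.0, 29.7 and 33.4 CPM. Both groups overlapped the healthy range from its low end. The acute fall of Meis2 passed the threshold only before adjustment (-0.94, SE 0.43, limma-voom adjusted p = 0.0594), and the call was lost when any 1 library other than healthy replicates 2 and 4 was left out. The fall in fibrosis was firmer (-1.44, SE 0.44, adjusted p = 0.0106). In cirrhosis, with values of 85.3, 124 and 165 CPM, the log2 fold change was 0.71 (95% interval -0.13 to 1.55, adjusted p = 0.133). Relative to the pan-endothelial genes it was 1.38.

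Nr2f2 was a DEG and lower in fibrosis alone, and relative to the pan-endothelial genes it was higher in acute injury (1.93) and fibrosis (1.71). The healthy libraries had a lowest, median and highest value of 28.6, 43.8 and 125 CPM, and the acute ones were at 51.9, 49.3, 33.0, 43.7 and 20.8 CPM. These groups overlapped widely, and the log2 fold change of -0.45 had a 95% interval from -1.25 to 0.36 (limma-voom adjusted p = 0.286). Fibrosis libraries were at 20.5, 20.7, 33.7, 27.5 and 40.2 CPM, with a log2 fold change of -0.87 (SE 0.36, adjusted p = 0.0446). The fibrosis call was lost when any 1 of 5 libraries was left out (healthy replicates 5 and 6 and fibrosis replicates 12, 13 and 16). In cirrhosis the values were 50.4, 59.2 and 103 CPM and the log2 fold change was 0.26 (95% interval -0.43 to 0.94, adjusted p = 0.505). Relative to the pan-endothelial genes it was 0.93.

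Erg was the 1 gene of the 9 that was a DEG and higher than in healthy LSECs in acute injury with TMM scaling, where relative to the pan-endothelial genes 6 others were higher too. It is an ETS factor of endothelium, and its healthy libraries had a lowest, median and highest value of 25.7, 64.1 and 155 CPM. The acute libraries were at 144, 191, 109, 140 and 106 CPM and the fibrosis libraries at 93.4, 111, 146, 94.5 and 109 CPM. In cirrhosis all libraries were above all healthy ones, at 169, 185 and 245 CPM. The rise was 2.21-fold in acute injury (log2 fold change 1.14, SE 0.43, limma-voom adjusted p = 0.0294) and 3.13-fold in cirrhosis (1.64, SE 0.39, adjusted p = 0.00343), and the value in fibrosis was 0.87 (95% interval -0.06 to 1.81, adjusted p = 0.0841). The cirrhosis call was made under all alternatives tried. The acute call was lost with edgeR's quasi-likelihood test (0.86, adjusted p = 0.083) and without acute replicate 2 (1.03). Erg was highest in healthy replicates 3, 5 and 6, at 89.5, 123 and 155 CPM, against 25.7 to 38.6 CPM in replicates 1, 2 and 4. The 10 hepatocyte markers summed to 3664, 1353 and 23920 CPM in the former and 14930, 26390 and 28640 CPM in the latter. With only healthy replicates 3 and 5, the libraries lowest in hepatocyte markers, the log2 fold change was 0.53 in acute injury (adjusted p = 0.0852), while in cirrhosis it was 0.90 in place of 1.64 and still a DEG (adjusted p = 0.00399).

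Fli1, the other ETS factor, fell in acute injury and fibrosis and rose in cirrhosis, but relative to the pan-endothelial genes it rose at all 3 stages (1.66, 1.72 and 1.62). Healthy libraries had a lowest, median and highest value of 51.7, 105 and 150 CPM. Acute libraries were at 64.98, 67.1, 51.2, 45.1 and 63.3 CPM, and those of fibrosis lay close together at 51.0, 52.3, 54.2, 49.0 and 49.3 CPM. The cirrhotic libraries, at 147, 192 and 219 CPM, overlapped the healthy range only at its top. The log2 fold change was -0.72 in acute injury (SE 0.27, limma-voom adjusted p = 0.0249), -0.86 in fibrosis (SE 0.25, adjusted p = 0.00824) and 0.96 in cirrhosis (SE 0.24, adjusted p = 0.0051). The acute call was lost without healthy replicate 3 (-0.57), healthy replicate 6 (-0.55) or acute replicate 4 (-0.61). With only healthy replicates 3 and 5, the cirrhosis value was 0.38 and no longer called (adjusted p = 0.0993). Fli1 is also expressed by blood cells.

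The SOXF factors differed in the size of their fall. Sox18 in healthy LSECs had a lowest, median and highest value of 53.3, 93.0 and 113 CPM. The acute libraries were at 4.52, 6.54, 7.64, 16.7 and 2.91 CPM and the fibrosis libraries at 6.88, 11.3, 7.88, 7.78 and 13.9 CPM. All of these were below all healthy libraries. In cirrhosis the values were 25.8, 33.0 and 65.9 CPM. The fall of Sox18 was 12.5-fold in acute injury (log2 fold change -3.64, SE 0.38, limma-voom adjusted p = 3.04e-06), 8.73-fold in fibrosis (-3.13, SE 0.27, adjusted p = 8.18e-07) and 2.27-fold in cirrhosis (-1.18, SE 0.27, adjusted p = 0.00274). Relative to the pan-endothelial genes only the acute call was kept, and the values in fibrosis and cirrhosis were -0.53 and -0.50.

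Sox17 was a DEG and lower in fibrosis alone, and relative to the pan-endothelial genes it was higher in acute injury (1.80) and fibrosis (1.499). In healthy LSECs it had a lowest, median and highest value of 70.7, 181 and 300.4 CPM. Acute libraries were at 127, 152, 97.4, 106 and 68.7 CPM and fibrosis libraries at 71.0, 72.2, 89.0, 58.6 and 79.6 CPM. Healthy replicate 2, the lowest, lay within both groups, and the other healthy libraries were all above the fibrosis ones. The log2 fold change was -0.59 in acute injury (95% interval -1.26 to 0.09, limma-voom adjusted p = 0.103), -1.09 in fibrosis (SE 0.29, adjusted p = 0.00445) and -0.40 in cirrhosis (95% interval -1.02 to 0.22, adjusted p = 0.247), where the values were 102, 113 and 198 CPM. Without healthy replicate 2 it was a DEG in acute injury (-0.84) and in cirrhosis (-0.65). The same holds with only healthy replicates 3 and 5, at -1.003 and -0.95.

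**Figure D3:**
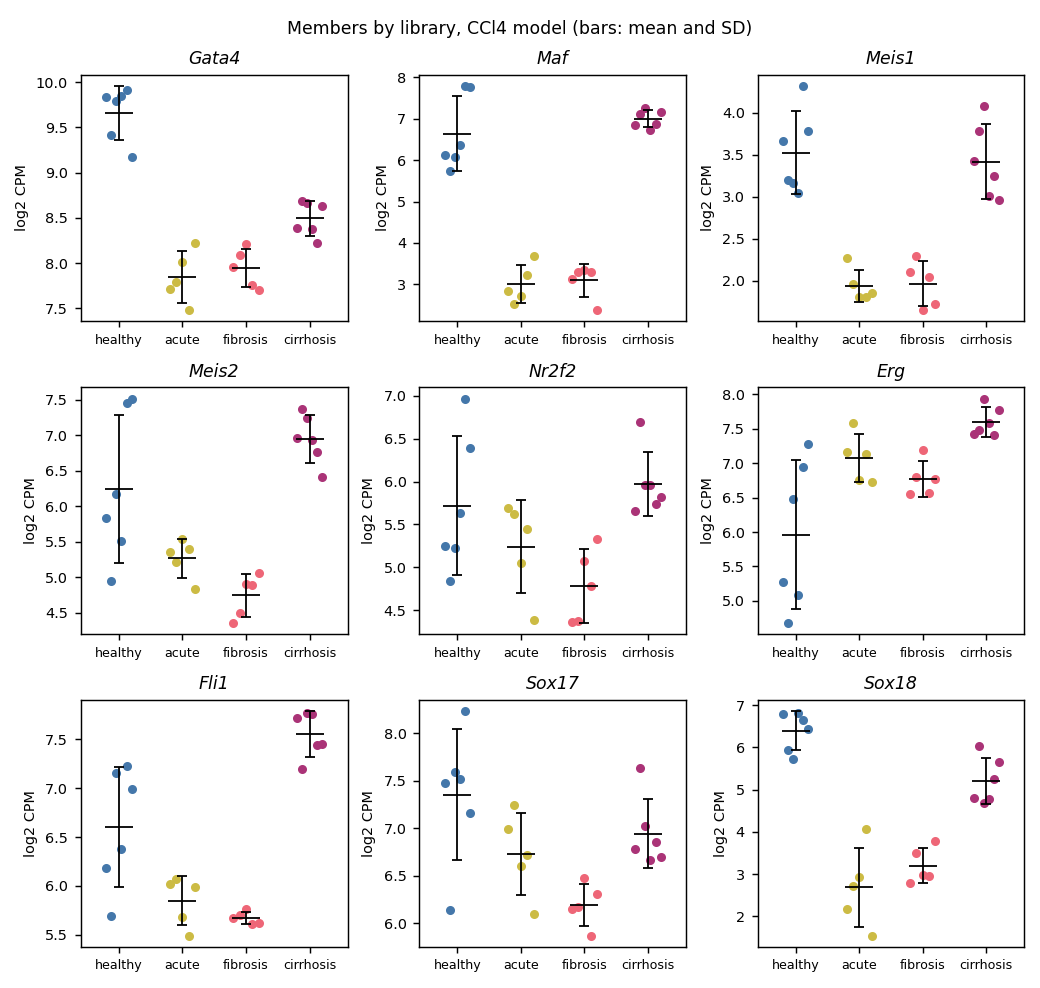
Log2 CPM of the 9 genes (1 panel each, y axes differ) in every library of the CCl4 model, with the mean and SD of each group. Maf, Meis1, Gata4 and Sox18 of the acute and fibrosis libraries lay below every healthy library, and Erg of the cirrhotic libraries above every healthy one, while relative to the pan-endothelial genes Gata4 and Meis1 were higher in acute injury and fibrosis.

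The healthy libraries varied more than the other CCl4 libraries for most of the 9 genes, but not for Gata4 and Sox18. The coefficient of variation of Sox18 was 29% in healthy LSECs, 70% in acute injury, 30.9% in fibrosis and 40.8% in cirrhosis. For Gata4 it was 18.9% in healthy LSECs and 19.8% in acute injury. The coefficient of variation of a member over the healthy libraries had a median of 42%, against 25% in acute injury, 19.2% in fibrosis and 22.9% in cirrhosis. Replicate 2 was the lowest healthy library for 6 of the 9 genes, and replicate 5 was the highest for 6. Healthy libraries also differed in the markers of hepatocytes, which summed to 1353 to 28640 CPM, against 148 to 933 in acute injury, 1329 to 5261 in fibrosis and 3064 to 14840 in cirrhosis. Leaving out the 4 healthy libraries with the highest sums kept the number of DEG at 7, 8 and 4, with Sox17 in place of Erg in acute injury and in place of Fli1 in cirrhosis.

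From acute injury to fibrosis, none of the 9 genes was a DEG in limma-voom, where 15.7% of all genes were, and the libraries overlapped for all 9, where they did not for 17.2% of all genes. Meis2 and Sox17 had an unadjusted p under 0.05, with log2 fold changes of -0.45 and -0.46 that missed the fold-change threshold (limma-voom adjusted p = 0.0731 and 0.111). edgeR's quasi-likelihood test and DESeq2 called none either. Leaving out acute replicate 8 gave 2 DEG, Nr2f2 (-0.60) and Sox17 (-0.62), and leaving out acute replicate 4 gave 1, Sox18 (0.92). The widest 95% interval was that of Sox18, from -0.33 to 1.42, and the narrowest that of Fli1, from -0.33 to 0.15.

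Between fibrosis and cirrhosis all 9 genes were separated, with every cirrhotic library above every fibrosis library, as was so for 30.8% of all genes (63.3% did not overlap in either direction). Of these, 8 were DEG and higher in cirrhosis, where 64.2% of all genes were DEG and 34.5% were DEG and higher. Maf rose 15.02-fold (log2 fold change 3.91, SE 0.17, limma-voom adjusted p = 1.94e-09), Meis2 4.60-fold (2.20, SE 0.18, adjusted p = 3.06e-07), Sox18 3.996-fold (1.998, SE 0.31, adjusted p = 8.67e-05) and Fli1 3.67-fold (1.88, SE 0.10, adjusted p = 9.28e-09). Meis1, Nr2f2, Erg and Sox17 rose by log2 fold changes of 1.45, 1.18, 0.82 and 0.74. Gata4 differed by 0.54, under the fold-change threshold, although its adjusted p was 0.00108. On the pan-endothelial scale 5 genes were called, of which Maf was the only one that was higher in cirrhosis. Gata4, Nr2f2, Erg and Sox17 were lower in cirrhosis (-1.43, -0.79, -1.15 and -1.23). Over all genes on that scale, 12727 of 15186 were DEG, 11316 of them lower, with a median log2 fold change of -1.93.

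Against acute injury, 7 of the 9 genes were DEG and higher in cirrhosis, where 69.7% of all genes were DEG and 37.8% were DEG and higher. Relative to the pan-endothelial genes, Gata4, Nr2f2, Erg and Sox17 were lower in cirrhosis (-1.09, -1.02, -1.20 and -1.52). Over all genes on that scale, 12762 of 15005 were DEG, 10202 of them lower, with a median log2 fold change of -1.7. With TMM scaling, Maf had the largest log2 fold change (4.01, SE 0.19, limma-voom adjusted p = 1.72e-09), followed by Sox18 (2.47, SE 0.42, adjusted p = 0.000137), Fli1 (1.71), Meis2 (1.68), Meis1 (1.49), Nr2f2 (0.72) and Gata4 (0.65). Erg, at 0.53 (adjusted p = 0.00592), missed the fold-change threshold, and Sox17 was at 0.21 (95% interval -0.25 to 0.68, adjusted p = 0.371). The libraries did not overlap for 5 of the 9, where this held for 65.8% of all genes. The calls of Gata4 and Nr2f2 were lost without cirrhosis replicates 2 and 6 (0.57 and 0.58). Gata4 was also lost without acute replicate 4 (0.55), and Nr2f2 without cirrhosis replicate 2 (0.58) or acute replicate 8 (0.51). Cirrhosis replicates 2 and 6 had the highest sums of 6 lymphatic endothelial markers, at 3335 and 3337 CPM, against 1503 to 2025 CPM in the other cirrhotic libraries.

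Relatives of these factors did not follow 1 pattern. Values of relatives, other regulators and listed marker genes against healthy LSECs, here and below, are given with TMM scaling alone. Relative to the pan-endothelial genes, the median log2 fold change of all genes was 2.30 in acute injury and 2.57 in fibrosis. Falls smaller than these may not hold on that scale. Of 32 genes of the same ETS, GATA, MAF, COUP-TF, SOXF and TALE homeodomain groups, 28 were tested against healthy LSECs. Over all genes tested, 35.8% were higher and 38.3% lower in acute injury, 35.8% and 35.4% in fibrosis, and 28.8% and 25.7% in cirrhosis. In acute injury 6 relatives were higher and 15 lower (median log2 fold change -0.81), in fibrosis 5 and 12 (-0.38), and in cirrhosis 5 and 6 (0.03). Fev, an ETS factor, was the most reduced in acute injury and fibrosis, with log2 fold changes of -6.77 and -7.02, and fell by 1.48 in cirrhosis. Its level was 57.2 CPM ± 12.6 (SD, n = 6) in healthy LSECs and 0.57 ± 0.35 (SD, n = 5) in acute injury. Gabpa, a widely expressed ETS factor, was higher at each stage (2.53, 2.39 and 1.39), as was Elf2 (0.96, 1.15 and 0.93), and Tgif1, a homeodomain repressor, was higher in acute injury and fibrosis (1.99 and 1.75). Nr2f6, a relative of Nr2f2, was lower at each stage (-2.28, -2.32 and -1.98).

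Among 30 other regulators of endothelial cells, 22 were tested in acute injury, of which 4 were higher and 15 lower (median log2 fold change -1.99). In fibrosis 5 were higher and 17 lower of 25 (-1.28), and in cirrhosis 11 higher and 6 lower of 28 (0.44). Klf2, the flow-responsive factor of quiescent endothelium, was at 585 CPM ± 213 (SD, n = 6) in healthy LSECs and 5.09 ± 2.66 (SD, n = 5) in acute injury, and its log2 fold change was -6.95, -6.29 and -1.44 along the 3 stages. Tcf4, a partner of other helix-loop-helix factors, and Foxp1, a forkhead factor, were higher in acute injury (2.25 and 1.63), fibrosis (2.80 and 1.87) and cirrhosis (1.28 and 1.30). Prox1, the lymphatic regulator, was lower in acute injury (-2.98) and fibrosis (-1.40) and higher in cirrhosis (0.80), as was Mecom, a regulator of arterial endothelium (-2.95, -1.69 and 1.81). Hey1, a Notch target, was lower in acute injury (-5.39) and fibrosis (-3.51).

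Genes of LSECs, of capillary endothelium and of endothelium in general were counted in the same fits. Of 19 LSEC genes, 15 were lower and 1 higher in acute injury (median log2 fold change -2.96), 17 lower and 1 higher in fibrosis (-3.22), and 5 lower and 3 higher in cirrhosis (-0.03). Wnt9b and Gpr182 were the most reduced in acute injury (-7.64 and -5.23) and fibrosis (-6.43 and -5.13), and Stab1 and Gpr182 in cirrhosis (-2.04 and -1.47). Dab2, an endocytic adaptor, was the LSEC gene that was higher in acute injury (0.90) and fibrosis (0.75), and with 0.63 in cirrhosis it passed the threshold there before adjustment only (limma-voom adjusted p = 0.056). Lyve1 was lower in fibrosis (-0.97) and higher in cirrhosis (0.75), and Clec1b was lower in acute injury and fibrosis (-2.93 and -3.22) and higher in cirrhosis (0.60). Of the genes of capillary endothelium, 6 were higher and 7 lower of 16 in acute injury, 6 and 6 of 17 in fibrosis, and 7 and 3 of 17 in cirrhosis. Esm1 rose in acute injury and fibrosis (4.16 and 3.63). Angpt2 (3.32, 2.20 and 1.46), Myc (2.47, 2.64 and 0.93) and Edn1 (0.78, 1.26 and 1.36) rose at all 3 stages. Vwf was the most reduced in acute injury and fibrosis (-7.74 and -6.43), followed by Plvap (-6.31 and -5.60), which was also lower in cirrhosis (-0.95). Apln was higher in acute injury (3.24) and fibrosis (0.88) and lower in cirrhosis (-1.47). Among the pan-endothelial genes with a mean log2 CPM of 1 or more, Icam2 and Ramp2 fell most in acute injury (-5.76 and -4.02) and fibrosis (-5.80 and -4.25). In cirrhosis, 2 were higher, Cldn5 (2.65), which was lower in acute injury and fibrosis (-6.71 and -5.96), and Tspan18 (1.74), and 8 lower, led by Eng (-1.55) and Icam2 (-1.43).

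The levels of the 9 genes were compared with each other across the 22 CCl4 libraries as a description. Of the 36 pairs, Maf and Meis1 had the highest Pearson correlation of log2 CPM (0.93) and Gata4 and Erg the lowest (-0.50). After subtracting the group means, which leaves the spread within groups, the median over pairs was 0.42 and 31 pairs were positive. Meis2 and Erg (0.82), Erg and Fli1 (0.81), and Meis2 and Nr2f2 (0.81) were then the closest, and Fli1 and Sox18 (-0.36) the farthest apart. The points of a pair share their library and its scaling. By the median over the 9 genes, the spread within groups was widest in the healthy libraries, with a coefficient of variation of 42%, against 19.2% to 25% in the other groups.

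**Figure D4:**
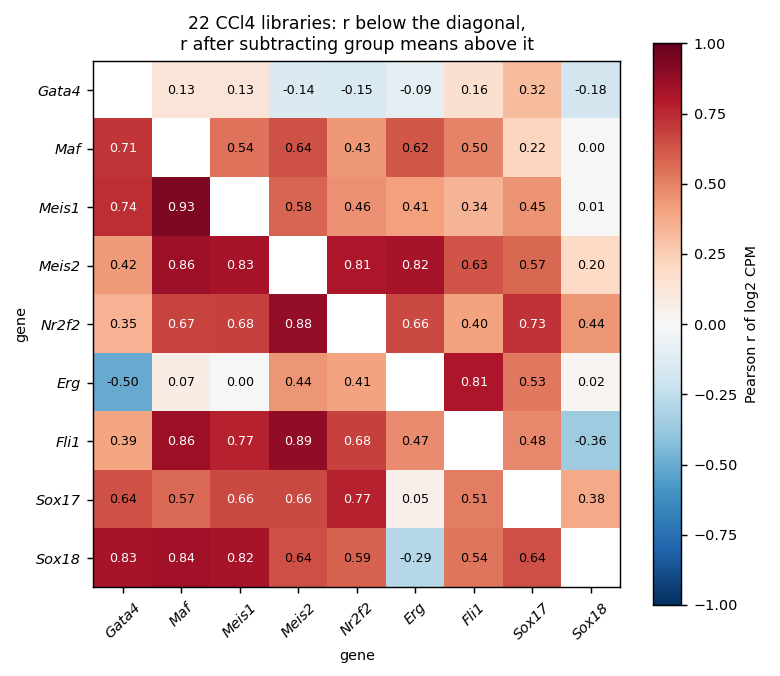
Pearson correlation of log2 CPM between the 9 genes over the 22 CCl4 libraries, below the diagonal as measured and above it after subtraction of group means. Erg stands out below the diagonal with values between -0.50 and 0.47.

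The gene most like each factor over the 22 libraries, among genes with a symbol and a mean log2 CPM of at least 3, was found by Pearson correlation, here also a description. For Gata4 these were Zfpm1 (0.98) and Bcar1 (0.98). For Maf they were Klhl13 (0.99) and Abca8a (0.99), for Meis1 Rfk (0.95) and Tsc22d1 (0.94), and for Meis2 Tgoln2 (0.95) and Asph (0.95). Nr2f2 was most like Impa1 (0.94) and Gcc1 (0.90), Erg like Abi2 (0.96) and Macf1 (0.95), Fli1 like Ehbp1 (0.97) and Rasgrp3 (0.97), Sox17 like Triobp (0.86) and Zfp503 (0.82), and Sox18 like Jade2 (0.97) and Palm (0.96). After subtraction of group means, the closest were Rusc2 for Gata4 (0.83), Selenop for Maf (0.91), Ccdc152 for Meis1 (0.76), Tmem260 for Meis2 (0.96), Impa1 for Nr2f2 (0.89), Ttbk2 for Erg (0.95), Snx9 for Fli1 (0.93), Wrnip1 for Sox17 (0.83) and Tmem209 for Sox18 (0.86). Impa1 was the gene named for the same factor by both measures.

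In the TAA experiment 6 of the 9 genes were DEG between the groups, where 29.4% of all genes were. Maf, Meis1, Meis2, Nr2f2 and Sox17 were higher and Fli1 lower in T TAA control, and the libraries of the groups did not overlap for any of these or for Gata4, which makes 7 of the 9 beside 35.4% of all genes. The median log2 fold change was 0.77 over the members and 0.03 over all genes. Replicates 14 and 15 of T TAA control resembled each other more than any other pair of libraries of 1 group (a chi-square of their counts of 2.96 per degree of freedom, against 23.6 or more in all other pairs), but differed by more than counting noise. Counting them as 1 library kept the 6 calls.

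Meis1 was at 14.0, 15.6, 14.5, 12.7 and 13.9 CPM in T control and at 33.1, 33.6, 36.4, 33.8 and 33.6 CPM in T TAA control. This was the smallest adjusted p of the 9 genes (log2 fold change 1.27, SE 0.07, limma-voom adjusted p = 1.6e-06). Meis2 was at 180, 191, 201, 141 and 151 CPM in T control and between 359 and 383 CPM in T TAA control (1.11, SE 0.10, adjusted p = 2.46e-05). Both MEIS genes thus differed by more than the spread of either group.

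Maf was at 150, 143, 96.6, 67.6 and 77.7 CPM in T control and at 282, 231, 297, 221 and 228 CPM in T TAA control (1.29, SE 0.22, limma-voom adjusted p = 0.00082). Sox17 was at 112 to 129 CPM in T control and at 188, 243, 239, 241 and 248 CPM in T TAA control (0.92, SE 0.09, adjusted p = 2.87e-05). Nr2f2 was at 50.5 to 91.2 CPM in T control and at 100.5 to 132 CPM in T TAA control (0.77, SE 0.17, adjusted p = 0.00317). The call of Nr2f2 was lost without T control replicates 4 and 5 (0.51), which had the highest lymphatic marker sums, 4160 and 2878 CPM against 1718 to 2204 in the other T control libraries and 992 to 1365 in T TAA control. Most of the sum in T TAA control was Flt4 (mean 1039 CPM), which is also on the LSEC list, followed by Reln (158). Ccl21, Mmrn1, Prox1 and Pdpn had means of 3.504, 1.19, 13.7 and 0.217 CPM there.

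Fli1 was at 178, 184, 271, 231 and 254 CPM in T control and at 126, 162, 116, 161 and 154 CPM in T TAA control (-0.63, SE 0.14, limma-voom adjusted p = 0.00408). Its fold-change was 1.54, close to the threshold, and the call was lost when T control replicate 3 or 5 or T TAA control replicate 10 or 13 was left out (-0.55 to -0.58), and without T control replicates 4 and 5 (-0.55). Gata4 was at 304 to 501 CPM in T control and 553 to 584 CPM in T TAA control, a log2 fold change of 0.51 under the threshold of fold-change (adjusted p = 0.0102), which it passed without T control replicate 1 (0.60). Erg did not differ beyond the spread of the libraries, with a 95% interval from -0.21 to 0.20, and Sox18 was at 0.36 (95% interval -0.11 to 0.82, adjusted p = 0.185), which was a DEG without T control replicates 4 and 5 (0.66).

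**Figure D5:**
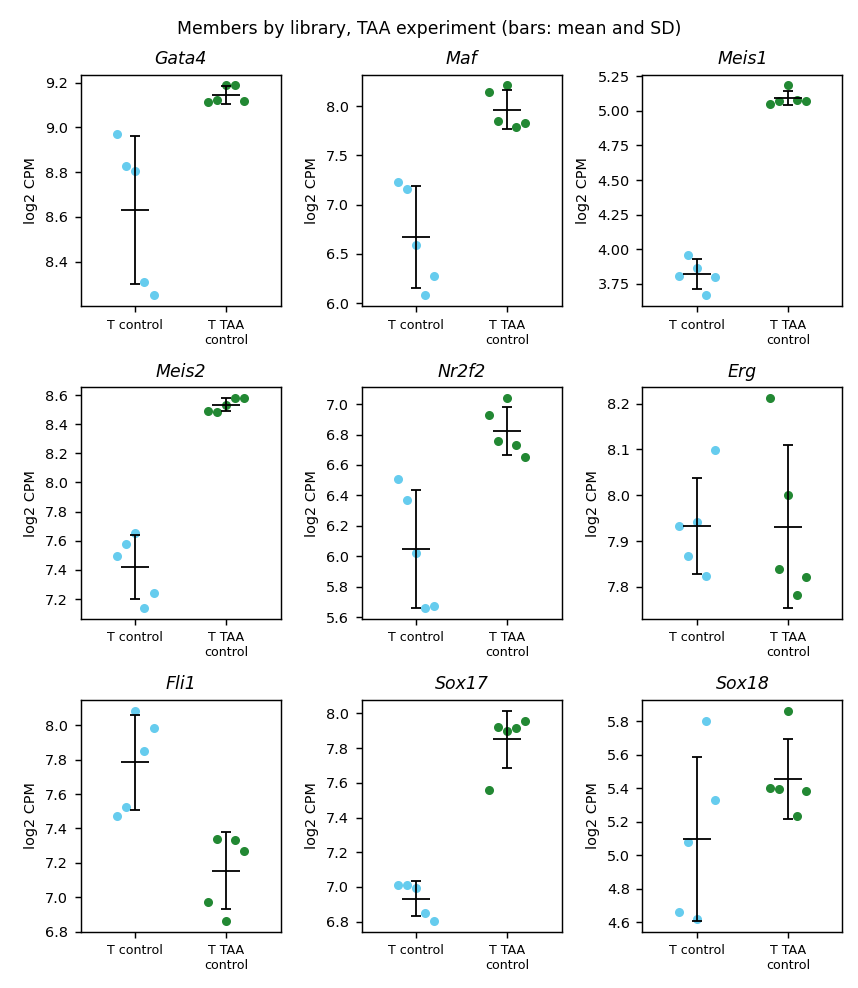
Log2 CPM of the 9 genes (1 panel each, y axes differ) in every library of the TAA experiment, with the mean and SD of each group. The groups do not overlap in the panels of Gata4, Maf, Meis1, Meis2, Nr2f2, Fli1 and Sox17.

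Of all genes tested in the TAA experiment, 13.5% were higher and 15.9% lower in T TAA control. Beside this, 8 LSEC genes were higher and 1 lower of 19, led by Bmp2 (1.55) and Rspo3 (1.41), with Wnt9b lower (-1.36). Of 17 capillary genes, 10 were lower, led by Myc (-2.37) and Vwf (-2.12), and 1 higher, Rgcc (0.88). Of the 16 pan-endothelial genes, 2 were higher, Clec14a (1.03) and Kdr (0.82), and 3 lower, led by Cldn5 (-5.06) and Ecscr (-1.43), and the median log2 fold change was 0.047. Among relatives of the 9 factors, 3 were higher and 7 lower of 27, with Fev (1.26) and Gata2 (1.26) higher and Tgif1 (-1.04) and Elf4 (-0.92) lower and a median of -0.15. Among the other regulators, 5 were higher and 10 lower of 27, with Klf2 (1.63) and Lyl1 (1.40) higher and Foxf1 (-2.16) and Prox1 (-1.92) lower. The summed stellate cell and fibroblast markers were 2935 to 6253 CPM in T control and 530 to 928 CPM in T TAA control, and the immediate-early genes summed to 14120 to 28180 and 47590 to 70060 CPM. The part of these differences in the values of the 9 genes was not tested.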

How the data were processed

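Each deposited file holds 1 library's expected counts from RSEM for 32623 genes, which the authors did not normalize. The authors sequenced strand-specific poly(A) libraries and used STAR for alignment to Rnor_6.0 and RSEM for counting, whose versions are not given in the sources used here. Expected counts were rounded to whole numbers and analysed in R 4.3.3 with limma-voom 3.58.1 and TMM factors, after filterByExpr, in a fit of the 2 groups compared. Adjusted p-values are Benjamini-Hochberg values of limma-voom over all genes tested. CPM and log2 CPM (pseudocount 0.5 counts) used TMM factors over the 22 CCl4 libraries or the 10 TAA libraries. Alternatives used edgeR 4.0.16, DESeq2 1.42.0, other scalings, filters and weights, and left libraries out. The fits were tested on simulated data.

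Groups come from the sample labels. The 9 genes, the gene lists and the tests were chosen with earlier results of these data known. All 9 genes are named. From the lists of relatives, other regulators, LSEC, capillary and pan-endothelial genes, up to 2 rises and 2 falls per comparison are named, among DEG that passed an adjusted p of 0.05 and had a mean log2 CPM of 1 or more, and other genes or stages named (Cdh5, Stab1, Stab2, Zfpm1, and list genes at stages where the rule does not name them) were chosen after their values were seen. A gene that this rule names is not reported here. Rbpj, Pecam1, Robo4, Ackr1 and Col1a2 were listed but were not matched by symbol. Levels of different genes are not compared, since gene lengths were not used here. Totals of 25646531 to 46464289 counts per library put each of the 9 genes above the low-count filter. The labels do not say that each library is a separate rat, so p-values measure the spread between these libraries. Alternatives that leave out libraries rich in hepatocyte or lymphatic markers, or use the block's libraries unpaired, were chosen after seeing the data.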

Additional observations from a re-analysis of the deposited data

Results flagged for a closer look

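Some libraries stood far from the others of their group (Dixon's ratio of the gap to the range, above its 95% critical value for the group size). Of 60 sets of values examined, 7 were marked, where chance marks about 1 in 20, or 3. Maf in fibrosis replicate 17 was low, at 5.22 CPM against 8.78 to 10.2 in the other 4 libraries (ratio 0.771). Nr2f2 in cirrhosis replicate 2 was high, at 103 CPM against 50.4 to 62.3 (0.704), in a library with lymphatic markers summing to 3335 CPM. In T TAA control, Meis1 (0.775) and Sox18 (0.732) were high in replicate 13, at 36.4 and 58.2 CPM, and Sox17 was low in replicate 10, at 188 CPM (0.854). The total count was high in acute replicate 4 (0.805), at 36920000 against at most 32990000, and in T control replicate 5 (0.822), at 32630000 against at most 28490000.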

How the results depend on the processing

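Of 63 values (9 genes in 7 comparisons), 40 were DEG, and 9 of these kept call and direction under every alternative run: Maf and Sox18 in acute injury, Erg in cirrhosis, Maf in cirrhosis against fibrosis and against acute injury, and Maf, Meis1, Meis2 and Sox17 in the TAA experiment. The direction turned 46 times, 28 of them relative to the pan-endothelial genes, which include all 20 among DEG. In acute injury these log2 fold changes were Gata4 0.60, Meis1 0.82, Meis2 1.43, Nr2f2 1.93, Fli1 1.66 and Sox17 1.80, and in fibrosis 0.94, 1.09, 1.14, 1.71, 1.72 and 1.499 for the same genes. In cirrhosis they were Meis1 0.57 and Sox17 0.27, and in fibrosis against acute injury Fli1 0.069. In cirrhosis against fibrosis they were Gata4 -1.43, Meis1 -0.52, Nr2f2 -0.79, Erg -1.15, Fli1 -0.098 and Sox17 -1.23, with 5 DEG in place of 8 and, over all genes, 12727 in place of 9755. In cirrhosis against acute injury they were Gata4 -1.09, Meis1 -0.24, Meis2 -0.057, Nr2f2 -1.02, Erg -1.20, Fli1 -0.029 and Sox17 -1.52. On this scale the higher share of DEG over all genes was 96.6% in fibrosis against acute injury (91.1% as reported), 11.1% in cirrhosis against fibrosis (53.7%), 20.1% in cirrhosis against acute injury (54.2%) and 24.8% in the TAA experiment (46%). Without TMM it was 60.7% in fibrosis and 71.2% in cirrhosis against healthy LSECs.

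The other turns were in values that were not DEG. Nr2f2 in acute injury was 0.015 with library weights. Meis1 in cirrhosis was 0.030 with upper-quartile factors, 0.24 without TMM and 0.027 with library weights, and -0.24 to 0.030 with 1 library left out. Nr2f2 in cirrhosis was -0.12 without the hepatocyte-rich healthy libraries, and Sox17 in cirrhosis against acute injury -0.043 with library weights. Erg in the TAA experiment was 0.0040 with edgeR, 0.027 with upper-quartile factors, 0.0015 without a filter, 0.033 with replicates 14 and 15 counted as 1, 0.0050 without the lymphatic-rich T control libraries, and -0.070 to 0.039 with 1 library left out. In fibrosis against acute injury the count of DEG was 2 without a fold-change threshold, 3 with library weights, and 0 to 2 with 1 library left out. The cause was not tested.

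Some groups share replicate numbers, which no label ties to a shared batch or animal. Of 14 same-numbered pairs, 5 deviated together (correlation over 0.1, range -0.154 to 0.219). Pairs with different numbers were not compared, so these values cannot decide whether the numbers pair the libraries. In acute injury the replicate block could use only replicates 1 to 4 of each group. Nr2f2 was then 0.33, Meis2 (-0.14) and Fli1 (-0.43) were no longer DEG, and 5 genes were DEG in place of 7. The same libraries without the block gave 0.33, -0.13 and -0.42 and also 5 DEG, so these values moved with the libraries used and not with the block. In cirrhosis against acute injury the count was 7 with and without it.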

Other observations

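Markers of other cells were counted in the same fits against healthy LSECs. Over all genes tested, 38.3% were lower in acute injury, 35.4% in fibrosis and 25.7% in cirrhosis, and 28.8% were higher in cirrhosis. All 10 hepatocyte markers, 10 of 10 macrophage markers and 7 of 7 lymphocyte markers tested were lower in acute injury (median log2 fold change -5.99, -3.33 and -4.76). With an adjusted p under 0.05 these counts were 10, 9 and 6. In fibrosis, 7 of 10, 10 of 10 and 5 of 8 were lower (-2.82, -4.10 and -2.80). In cirrhosis, 10 of 13 stellate cell and fibroblast markers were higher and none was lower (median 2.03), and 4 of 6 lymphatic endothelial markers were higher and 1 lower (2.44). Ccl21, a chemokine of lymphatic endothelium, was at 3.84 CPM ± 2.33 (SD, n = 6) in healthy and 1185 ± 740 (SD, n = 6) in cirrhotic LSECs. It was at 1079 ± 841 (SD, n = 5) in T control and 3.504 ± 1.77 (SD, n = 5) in T TAA control. Cholangiocyte markers were higher in cirrhosis for 5 of 7 (4 with an adjusted p under 0.05), and neutrophil markers for 3 of 4. The other neutrophil marker, Csf3r, was lower before adjustment only (mean 13.6 CPM in healthy and 4.32 in cirrhotic LSECs). The higher ones were near the floor, with means of at most 2.59 CPM in cirrhosis. Arterial and venous markers were lower in acute injury (10 of 11) and fibrosis (9 of 11), and 2 were higher and 2 lower in cirrhosis. In T TAA control, 12 of 15 immediate-early genes were higher (median 1.55), as were 4 of 10 macrophage and 4 of 5 lymphocyte markers, beside 13.5% of all genes. There 5 of 6 lymphatic, 10 of 13 stellate cell and fibroblast, 7 of 10 hepatocyte and 6 of 6 cholangiocyte markers were lower, beside 15.9% of all genes. With an adjusted p under 0.05, 2 macrophage and 3 lymphocyte markers were higher and 6 hepatocyte markers lower.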
